A study of Mus musculus with 4 samples.

Results

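Ribonucleotide reductase, the enzyme that hydroxyurea inhibits, and the cell cycle genes around it were placed in the topologically associating domains (TADs) of mouse hepatocytes. The 9 genes were Rrm1, Rrm2 and Rrm2b, which encode the enzyme, Trp53, Mdm2 and Cdkn1a of the p53 axis, and the growth genes Ccnd1, Ccne1 and Myc. They were chosen by name and are 9 of the 21755 protein-coding genes on the chromosomes with TADs. All 9 were found in the annotation.

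AML12 cells, an immortalized mouse hepatocyte line, were examined by in situ Hi-C, which records pairs of DNA segments that lie close together in the nucleus. One group was plated on dishes (2D) and the other was embedded in Matrigel, a basement membrane gel (3D), with 2 replicates each and 4 samples in all. Hydroxyurea at 1 mM was given to every culture, the 2D cells being exposed for 24 h and the 3D cells for 36 h, so there was no group without the drug and the growth dimension cannot be told apart from the time of exposure. The deposited files used here hold 1 list of TADs per culture, 4467 in 2D and 4355 in 3D, called on the combined replicates. With 1 list per culture there was no spread between replicates and no test was made. The lists give no contact counts for single TADs. RNA-seq data were not analysed here, so the hepatocyte label was not checked against marker genes.

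Ribonucleotide reductase turns ribonucleotides into the deoxyribonucleotides (dNTPs) from which DNA is built. Rrm1 encodes the large catalytic subunit, Rrm2 the small subunit made for S phase, and Rrm2b a small subunit that p53 can induce and that serves repair and mitochondrial DNA. Hydroxyurea quenches the radical of the small subunits, so that dNTPs run short, replication forks stall and cells collect at the start of S phase. The p53 protein, encoded by Trp53, is stabilized by such stress, and it induces both Cdkn1a, the inhibitor of cyclin-dependent kinases known as p21, and Mdm2, the ubiquitin ligase that degrades p53. Cyclin D1 (Ccnd1) and cyclin E1 (Ccne1) drive the kinases that open S phase, and Myc is a transcription factor that promotes growth and division.

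The promoters of the genes on which these roles turn are shown from RefSeq (GRCm38.p6), as the 250 bases before the RefSeq start. In the set of promoters used here, an entry was matched for 6 of the 9 genes. Positions in these windows are counted back from the RefSeq start, the base after the window, which need not be the GENCODE start used to place the gene. Promoters of Rrm1, at chr7:102441445-102441694, and of Rrm2, at chr12:24708004-24708253, both on the plus strand, are printed because these genes encode the S phase enzyme. The capitals mark CCAAT, a box bound by NF-Y in many cell cycle promoters, searched on both strands.
Rrm1: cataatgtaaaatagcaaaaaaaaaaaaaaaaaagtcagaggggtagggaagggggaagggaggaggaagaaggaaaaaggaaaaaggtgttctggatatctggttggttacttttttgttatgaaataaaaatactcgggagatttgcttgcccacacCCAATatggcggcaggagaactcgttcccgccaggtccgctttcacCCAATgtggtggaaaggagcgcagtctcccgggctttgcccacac
Rrm2: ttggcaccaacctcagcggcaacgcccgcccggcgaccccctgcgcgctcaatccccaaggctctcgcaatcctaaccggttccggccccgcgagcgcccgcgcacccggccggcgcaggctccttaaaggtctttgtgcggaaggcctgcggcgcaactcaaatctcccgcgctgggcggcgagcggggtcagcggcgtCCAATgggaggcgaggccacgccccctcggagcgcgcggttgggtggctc
The letters CCAAT started at positions -91 and -45 from the RefSeq start of Rrm1 and at -50 from that of Rrm2. Those of Mdm2 and Trp53 held the box on the opposite strand, at -72 and -8, and the box was not found in the windows of Cdkn1a and Ccne1. Of 32851 promoters of the same length, 33.8% held CCAAT. The E2F letters TTTCCCGC and TTTGGCGC, searched on both strands, were in none of the 6 genes' windows and in 1.3% of all promoters. Only exact copies of these words were counted, and bases after the start were not searched. Near or shorter matches were thus missed, such as the letters TTCCCGC in the Rrm1 window, and a lack of E2F sites was not shown. The letters TATAAA were found only in the Trp53 window, on the opposite strand at -248, and in 12.4% of all promoters.

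The first of the 2 RefSeq promoters of Cdkn1a, at chr17:29090729-29090978 on the plus strand, is printed because p53 acts on this gene. The capitals mark a match to the p53 response element, taken as 2 abutting copies of the p53 consensus with at most 1 base off, a search that was added after the sequence had been seen.
Cdkn1a: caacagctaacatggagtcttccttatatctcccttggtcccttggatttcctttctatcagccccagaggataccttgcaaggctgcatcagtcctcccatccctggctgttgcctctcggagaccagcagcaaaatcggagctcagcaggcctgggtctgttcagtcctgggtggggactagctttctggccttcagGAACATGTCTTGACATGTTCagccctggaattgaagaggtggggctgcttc
The match started at position -51 from the RefSeq start of this first promoter. The window of the second promoter, chr17:29093519-29093768, lies downstream of the match and held none. This match was the only one in the 6 genes, and 25 of the 32851 promoters (0.0761%) held such a match. The letters GATC, at which the enzyme MboI cut the chromatin for Hi-C, were found in 41.9% of all promoters. Among the 6 genes they were present only in the second promoter of Cdkn1a, at position -82. These matches describe the sequence and do not show that a factor was bound.

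A TAD is a stretch of chromosome whose segments contact each other more than they contact the neighbouring stretches. Each TAD of the lists begins and ends on a grid of 40 kb bins, so a distance to a border is known only to about 1 bin. A gene was placed by its annotated start, and a stretch between TADs that belongs to none is called unassigned. Why such stretches were left out, and whether TADs had to reach some minimum length, is not given in the sources used here. A gene was taken to be in the same TAD in both cultures when both ends of its 2D TAD lay within 40 kb of both ends of its 3D TAD.

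In each culture 7 of the 9 genes started in a TAD, against 76.7% of all protein-coding genes in 2D and 83.5% in 3D. The same TAD held the gene in both cultures for 4 of the 9, namely Rrm1, Rrm2b, Cdkn1a and Ccnd1, which is 44.4% of the 9 against 49.7% of all protein-coding genes. All 4 TADs had identical ends in the lists. A TAD with identical ends thus held 44.4% of the 9, against 35.1% of all protein-coding genes. Rrm2 and Myc lay in TADs that differed between the cultures, Ccne1 was in a TAD in 2D only, Trp53 in 3D only, and Mdm2 was unassigned in both. Over all protein-coding genes these classes held 23.1%, 3.95%, 10.8% and 12.6%.

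**Figure D1:**
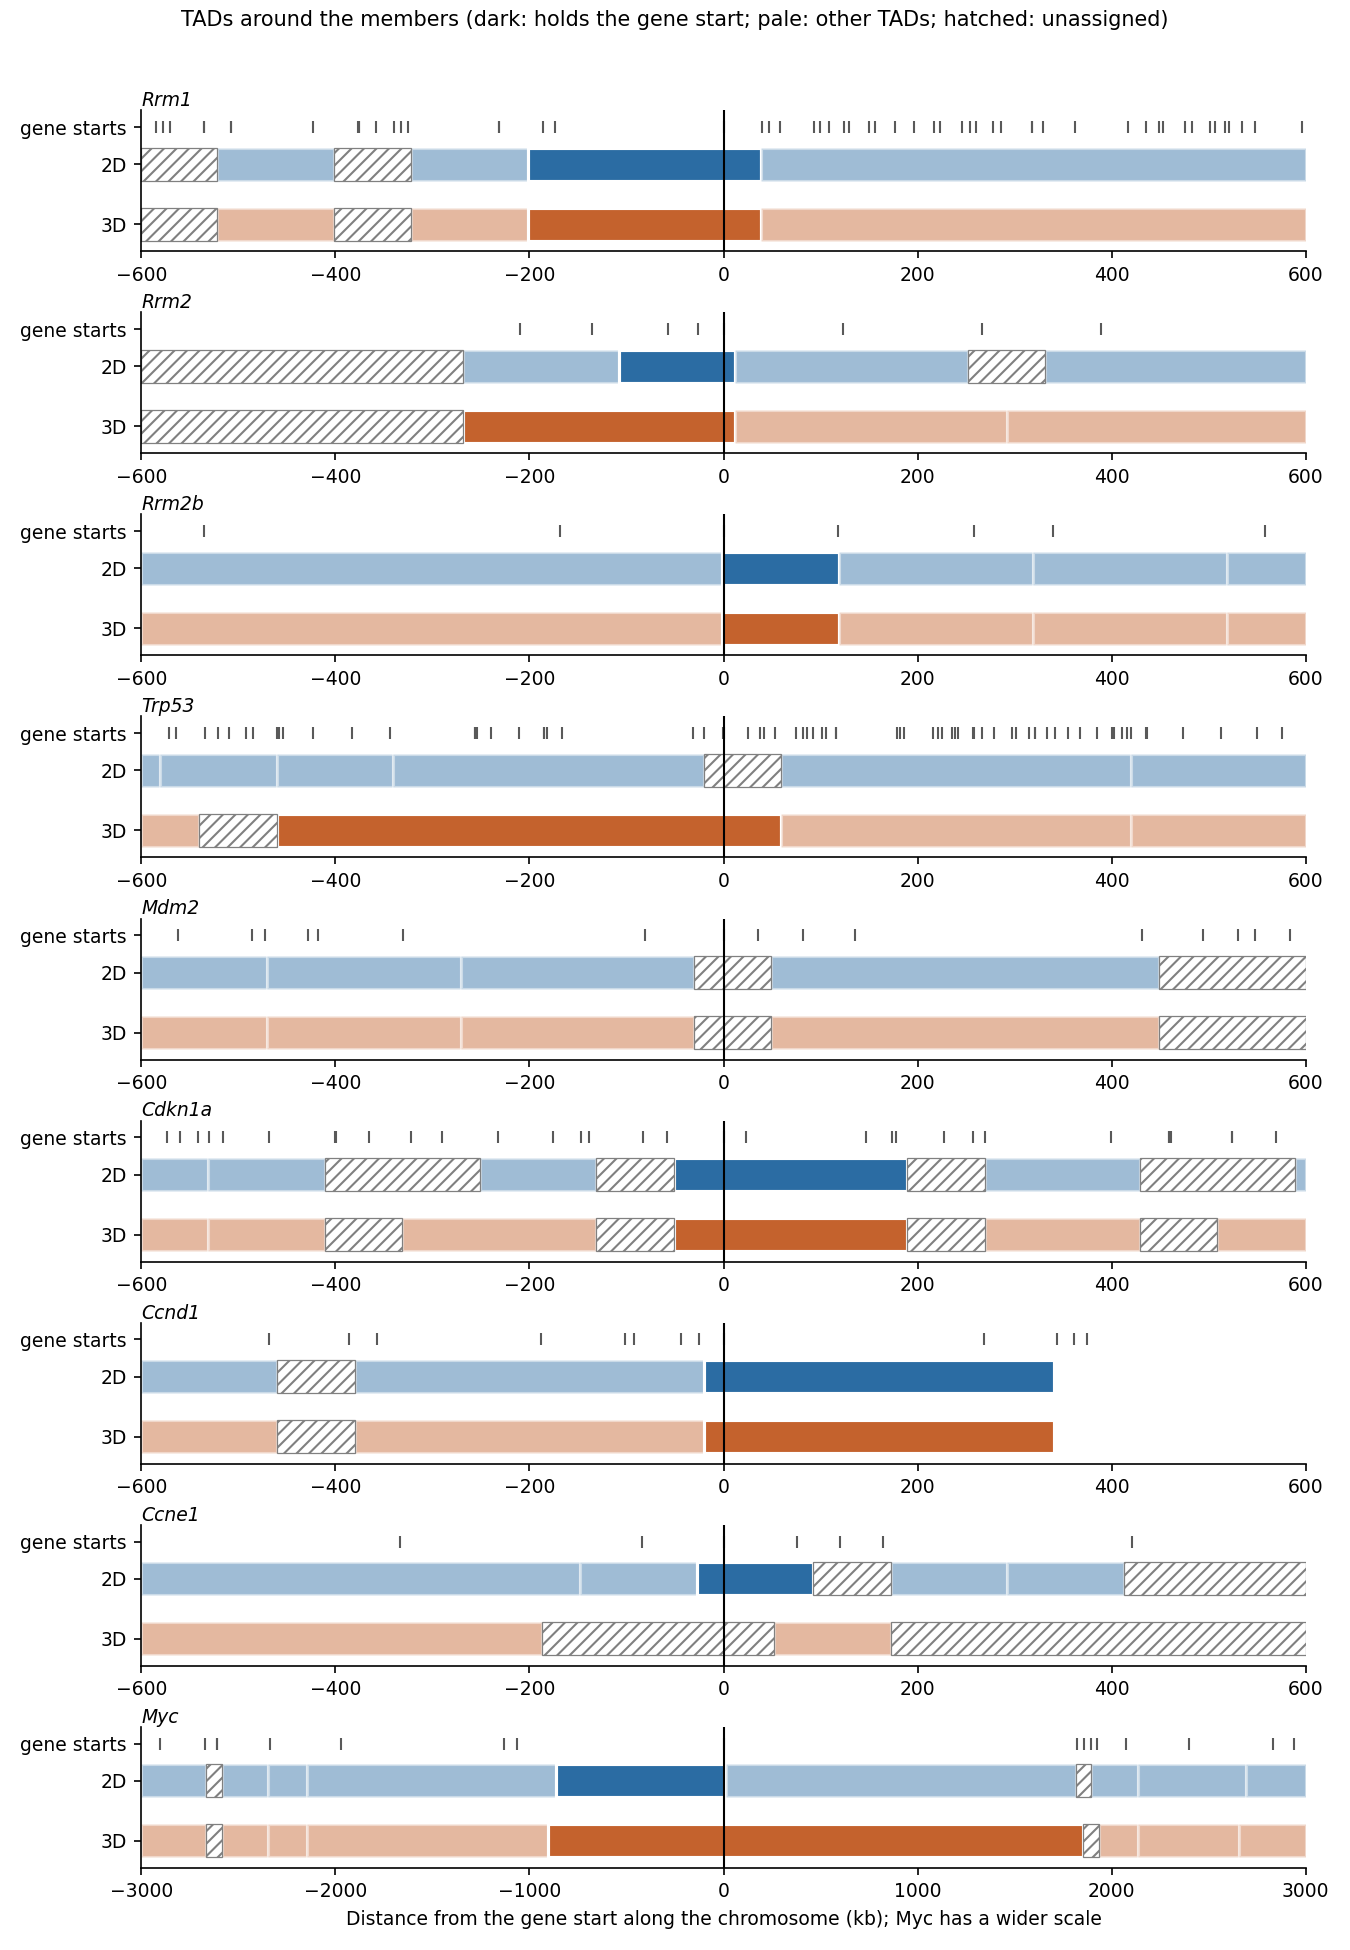
Maps of the TADs around each gene start, with the distance along the chromosome in kb on the x axis and the 2D and 3D lists as rows. Dark bars hold the gene start, pale bars are other TADs, hatched boxes are unassigned, ticks are starts of other protein-coding genes, and the stretch beyond the last TAD of a chromosome is blank. The dark bars of Rrm1, Rrm2b, Cdkn1a and Ccnd1 are the same in both rows, while the intervals that hold the starts of Rrm2, Trp53, Ccne1 and Myc differ.

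The large subunit gene Rrm1 (ENSMUSG00000030978.10) occupies chr7:102441695-102469771 of mm10, on the plus strand, and lay whole in a TAD of 240 kb, chr7:102240001-102480000, in both cultures. Ranked among all protein-coding genes in a TAD, this size stood at percentile 40.1 in 2D and 33.4 in 3D. The start lay 202 kb from the upstream end and 38.3 kb from the downstream end, and another TAD met it directly at each end. The TAD held 3 coding gene starts, those of Rrm1, of Rhog, a small GTPase, and of Stim1, the calcium sensor of the endoplasmic reticulum. That is 12.5 starts per Mb, at percentile 38.3 in 2D and 35.8 in 3D. The next TAD downstream, chr7:102480001-104200000, was also the same in both cultures. It measured 1720 kb and held 109 coding gene starts, of which 95 were olfactory receptors. In a window of 1 Mb centred on Rrm1 there were therefore 42 coding starts, at percentile 89.5, so that Rrm1 was in the middle range by its own TAD and in the highest 25% by its window. The border 38.3 kb downstream of the start of Rrm1 fell in an intron of the olfactory receptor gene Olfr543, and the opposite border in an exon of Rhog.

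Rrm2 (ENSMUSG00000020649.11), the S phase small subunit gene, occupies chr12:24708241-24714146 on the plus strand, and its TADs differed between the cultures. In 2D it lay in a TAD of 120 kb, chr12:24600001-24720000, and in 3D in one of 280 kb, chr12:24440001-24720000. The 3D TAD was 2.33 times as long and covered 2 neighbouring 2D TADs, of 160 kb and 120 kb, from end to end. The downstream end, 11.8 kb from the start of Rrm2, was the same in both, and the upstream end lay 160 kb farther out in 3D, at 268 kb from the start instead of 108 kb. The 2D border that had no counterpart fell in an intron of Grhl1, and the nearest 3D border was 120 kb away. The size percentile was 7.37 in 2D and 41.2 in 3D. Klf11, a transcription factor gene, and Cys1 started in the TAD of Rrm2 in both cultures, and Grhl1 and Taf1b joined it in 3D. The density was 25 coding starts per Mb in 2D and 17.9 in 3D, at percentiles 62.7 and 48.4, both in the middle range.

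Beyond the TADs, the surroundings of Rrm2 were sparse. A window of 1 Mb around its start held 8 coding starts, at percentile 20.6, in the lowest 25%. The stretch before position 24440000 was unassigned over 3120 kb in the 2D list and over 2880 kb in the 3D list. The 2880 kb held 2 coding starts, and repeats made up 44.7% of its bases, with no unknown base. For comparison, the 40 kb bins that hold coding gene starts had a median of 29.3% repeats. The part of repeats in the lack of TADs there was not tested.

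Rrm2b (ENSMUSG00000022292.16), the p53-inducible small subunit gene, occupies chr15:37923952-37961318 on the minus strand and is the 1 gene of the 9 that a border cut. Its start lay in a TAD of 120 kb, chr15:37960001-38080000, in both cultures, at size percentile 7.37 in 2D and 5.37 in 3D. The border at position 37960000 fell in an intron of Rrm2b, only 1.32 kb from its start, at percentile 1.65 of all coding genes in 2D and 1.63 in 3D. Of the 37.4 kb of the gene, 1.32 kb thus lay in the TAD of its start and the rest in the neighbouring TAD of 600 kb, chr15:37360001-37960000. Because 1.32 kb is much less than a bin, the side on which the start falls cannot be resolved by these maps. Whether a border cuts some of the other genes is not resolved either. The nearest edges of Rrm2 and Mdm2, for example, lay 5.85 and 8.87 kb from a border in both lists. The small TAD and the 600 kb TAD each held 2 coding starts. The window of 1 Mb held 5, at percentile 9.51, the lowest after Myc.

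Rrm1 and Rrm2b had identical TADs in the cultures and Rrm2 had not. The distance from the start to the nearest border was the same in 2D and 3D for each of them, at 38.3 kb for Rrm1, 11.8 kb for Rrm2 and 1.32 kb for Rrm2b, all under the median over all coding genes, which was 53.6 kb for the 2D list and 58.3 kb for the 3D list.

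Trp53 (ENSMUSG00000059552.13), at chr11:69580359-69591873 on the plus strand, was unassigned in 2D and in a TAD in 3D. In 2D its start lay in an unassigned stretch of 80 kb, chr11:69560001-69640000, which is shorter than the shortest TAD of either list (120 kb). In 3D a TAD of 520 kb, chr11:69120001-69640000, held it, at size percentile 65.2. This TAD covered 2 TADs of the 2D list, of 120 kb and 320 kb, together with the unassigned 80 kb. The downstream end was at the same position in both lists, in an intron of Fxr2, where a TAD of 360 kb with 35 coding starts began in both. The nearest border to the start of Trp53 was 20.4 kb away in 2D and 59.6 kb away in 3D.

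The region of Trp53 was the richest in genes of the 9. A window of 1 Mb held 64 coding starts, at percentile 99.3. In the 3D TAD there were 23, or 44.2 per Mb, at percentile 84, which made it gene-dense, the term used here for the highest 25% of coding genes in a TAD. The unassigned stretch of 2D held 7, or 87.5 per Mb. The nearest of the other 6 was Wrap53, a gene for a telomerase and Cajal body protein that is read in the opposite direction from a start 0.104 kb away. Efnb3, Atp1b2, Shbg and Sat2 followed at 20.2, 25.6, 37.5 and 41.7 kb, and all were in the same interval as Trp53 in both cultures.

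Mdm2 (ENSMUSG00000020184.15), at chr10:117688875-117710758 on the minus strand, was unassigned in both cultures. The stretch was the same in both, chr10:117680001-117760000, and at 80 kb it was also shorter than the shortest TAD. It lay between a TAD of 240 kb and one of 400 kb, whose ends agreed between the lists. The start of Mdm2 was 30.8 kb from the nearest border, at percentile 33.1 in 2D and 31.4 in 3D. The borders fell in an exon of Cpm, a carboxypeptidase gene, and in an intron of Nup107, a nuclear pore gene. Besides Mdm2, the stretch held the start of Slc35e3, and the window of 1 Mb held 12 coding starts, at percentile 35.6.

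Cdkn1a (ENSMUSG00000023067.14), at chr17:29090976-29100727 on the plus strand, lay whole in the same TAD of 240 kb in both cultures, chr17:29040001-29280000. Its start was 51.0 kb from the upstream end and 189 kb from the downstream end. This was the one TAD of the 9 genes with an unassigned stretch on each side, and both stretches measured 80 kb in both cultures. It held 5 coding starts, or 20.8 per Mb, at percentiles 56.7 and 54.9, those of Cdkn1a, Rab44, Cpne5, Ppil1 and BC004004. The start of Trp53cor1, the p53-induced long noncoding RNA also called lincRNA-p21, lay 11.8 kb from that of Cdkn1a and in the same TAD in both cultures.

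Of the p53 axis, then, Cdkn1a had the same TAD in both lists, Mdm2 had none in either and Trp53 had one in 3D only. None of these 3 loci shared a TAD with another of the 9 genes, and each lies on a chromosome of its own.

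Ccnd1 (ENSMUSG00000070348.5), at chr7:144929931-144939925 on the minus strand, had the same TAD of 360 kb in both cultures, chr7:144920001-145280000. It was the last TAD of chromosome 7 in each list, and the gene start lay 502 kb from the end of the chromosome. The gene sat at the edge of this TAD next to the interior of the chromosome, 19.9 kb from the border, which fell in an exon of LTO1, with 340 kb of the TAD on the upstream side of the gene. The TAD held 2 coding starts, those of Ccnd1 and of 1810010D01Rik, 268 kb apart. At 5.56 per Mb this was gene-poor, the term used for the lowest 25%, with percentiles of 17.7 in 2D and 16.3 in 3D. The preceding TAD, also of 360 kb, held 6 coding starts, and the window of 1 Mb held 13, at percentile 39.2.

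Ccne1 (ENSMUSG00000002068.16), at chr7:38097984-38107534 on the minus strand, was the 1 gene of the 9 with a TAD in 2D and none in 3D. The 2D TAD measured 120 kb, chr7:38080001-38200000, and the gene start lay 27.5 kb from its nearest border. In 3D the start lay in an unassigned stretch of 240 kb, chr7:37920001-38160000, 52.5 kb from the nearest border. Unlike the stretches of Trp53 and Mdm2, this one was longer than the shortest TAD. Next to it the 3D list had a TAD of 120 kb, chr7:38160001-38280000, which began inside the 2D TAD of Ccne1. Of the 2D TAD, 66.7% overlapped the unassigned stretch. In 2D the uncharacterized gene 1600014C10Rik shared the TAD of Ccne1, and in 3D Uri1, which encodes a prefoldin-like protein, shared its unassigned stretch. Farther along lay a large TAD with 5 coding starts, which measured 2320 kb in the 2D list, with a TAD of 120 kb between it and that of Ccne1, and 2280 kb in the 3D list, where it ended at the unassigned stretch. The window of 1 Mb around Ccne1 held 7 coding starts, at percentile 16.7.

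Myc (ENSMUSG00000022346.15), at chr15:61985391-61990374 on the plus strand, lay in a gene desert and had the longest TAD of the 9 genes in each culture. It was in a TAD of 880 kb in 2D, chr15:61120001-62000000, and in one of 2760 kb in 3D, chr15:61080001-63840000, a ratio of 3.14. The size percentiles were 72.5 and 94.2. In 2D the gene lay 14.6 kb from the downstream end of its TAD, at percentile 17.1 for the distance to a border. The 3D border nearest to that end was 920 kb away from it, and in 3D Myc was 905 kb from the nearest border, at percentile 96.5. The 3D TAD covered the 880 kb TAD of 2D and the next one, of 1800 kb, which held no coding start. Pvt1, a long noncoding RNA gene that starts 52.6 kb downstream of the start of Myc, lay in that next TAD in 2D and in the TAD of Myc in 3D. Because 14.6 kb is less than a bin, these maps do not resolve whether the 880 kb or the 1800 kb TAD of 2D holds Myc. The 2D size and density given for Myc and its separation from Pvt1 depend on this.

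Myc was the only coding gene to start in its 2D TAD, at 1.14 per Mb and percentile 1.63. In 3D the second was Gsdmc, a gasdermin gene 1823 kb away, which gave 0.725 per Mb at percentile 0.699. The window of 1 Mb held no coding start besides that of Myc, at percentile 0.662. The upstream end moved by 40 kb, 1 bin, and the downstream end by 1840 kb.

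**Figure D2:**
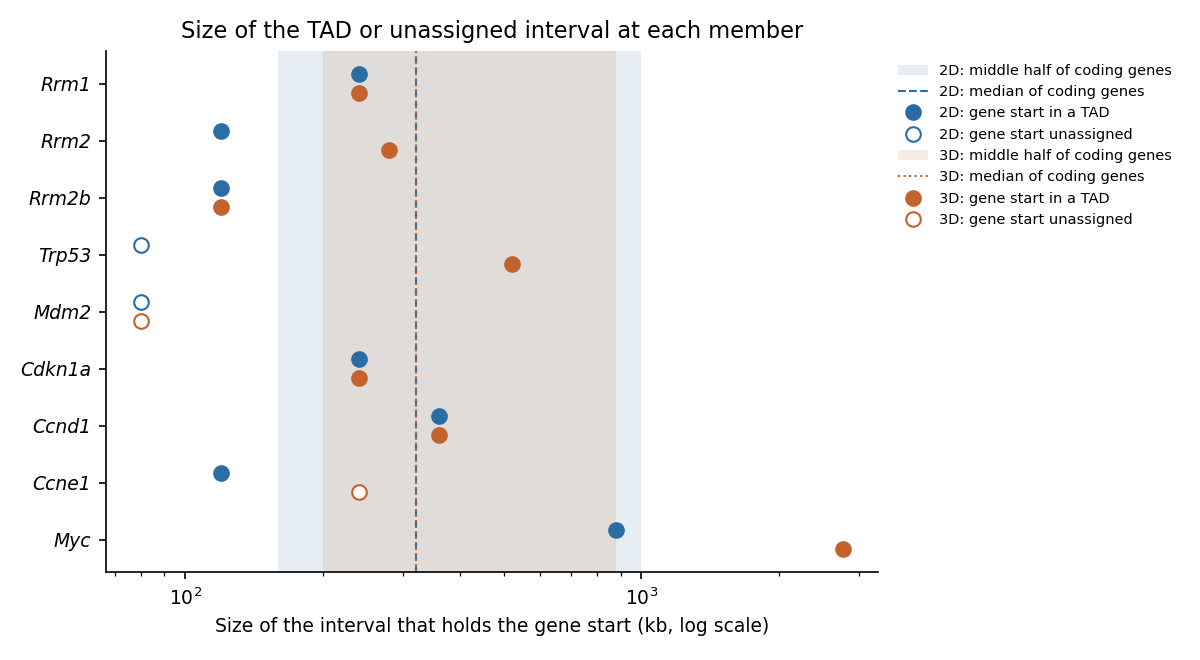
Size in kb (log axis) of the TAD or unassigned interval that holds each gene start in the 2D and 3D lists. Filled circles are TADs, open circles unassigned intervals, shaded bands the range between the 25 and 75 percentiles and lines the medians (320 kb in both lists) over all protein-coding genes in a TAD. Only Myc lies above the bands in 3D, at 2760 kb.

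In each list 7 genes were in a TAD, with Ccne1 among them in 2D only and Trp53 in 3D only. The 2D sizes lay between 120 and 880 kb (median 240 kb) and the 3D sizes between 120 and 2760 kb (median 280 kb). Both medians were under that of all protein-coding genes in a TAD, 320 kb in each list. Of the 6 genes in a TAD in both cultures, 2 had a longer one in 3D, 4 an equal one and none a shorter one. Over the 15824 coding genes in a TAD in both, 30.8% had a longer one in 3D, 49.3% an equal one and 19.96% a shorter one.

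**Figure D3:**
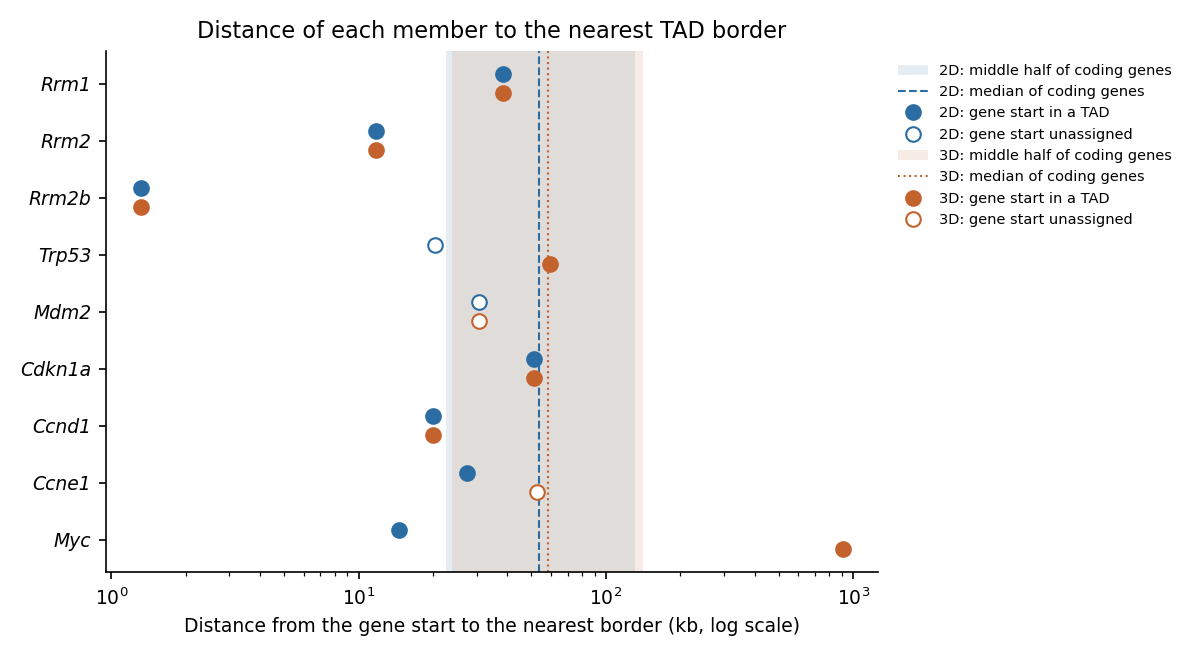
Distance in kb (log axis) from each gene start to the nearest border of the 2D and 3D lists. Filled circles are genes in a TAD, open circles unassigned genes, shaded bands the range between the 25 and 75 percentiles and lines the medians over all protein-coding genes, and Myc moves from 14.6 kb in 2D to 905 kb in 3D.

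A border lay within 40 kb of the start for 8 of the 9 genes in 2D, against 41.1% of all protein-coding genes, and for 5 of the 9 in 3D, against 38.7%. The exception in 2D was Cdkn1a at 51.0 kb. Trp53, Ccne1 and Myc left this range in 3D, and these 3 accounted for the whole difference between the counts. The median distance over the 9 genes was 20.4 kb for the 2D list and 38.3 kb for the 3D list, with no replicate to set this against. From the nearest edge of the gene the medians were 9.93 kb and 10.2 kb, and from the start to positions where 2 TADs meet they were 27.5 kb and 59.6 kb. From the gene edge, Trp53, Ccne1 and Myc lay 20.4, 17.98 and 9.63 kb from a border of the 2D list and 48.1, 52.5 and 905 kb from one of the 3D list. Because a position is known to 1 bin, the ranking of genes within 40 kb of a border is not resolved. The TADs of the 7 genes in a TAD had 14 distinct borders in each list. Those of Ccne1 counted in 2D only and those of Trp53 in 3D only, so the borders are not all of the same loci. In 2D 11 of 14 (78.6%) had a 3D border within 40 kb, against 83.1% of the borders of all TADs that hold a coding gene start, and in 3D 14 of 14 had a 2D border within 40 kb, against 88.7%. When only positions where 2 TADs of the other list meet were counted as its borders, these numbers were 7 of 14 in 2D, beside 51.0% of the borders of all TADs with a coding gene start, and 8 of 14 in 3D, beside 46.5%. The 2D borders with no 3D border of any kind within 40 kb belonged to the TADs of Rrm2, Ccne1 and Myc. With only meeting points counted, borders of the TADs of Cdkn1a and Ccnd1 also had no counterpart.

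**Figure D4:**
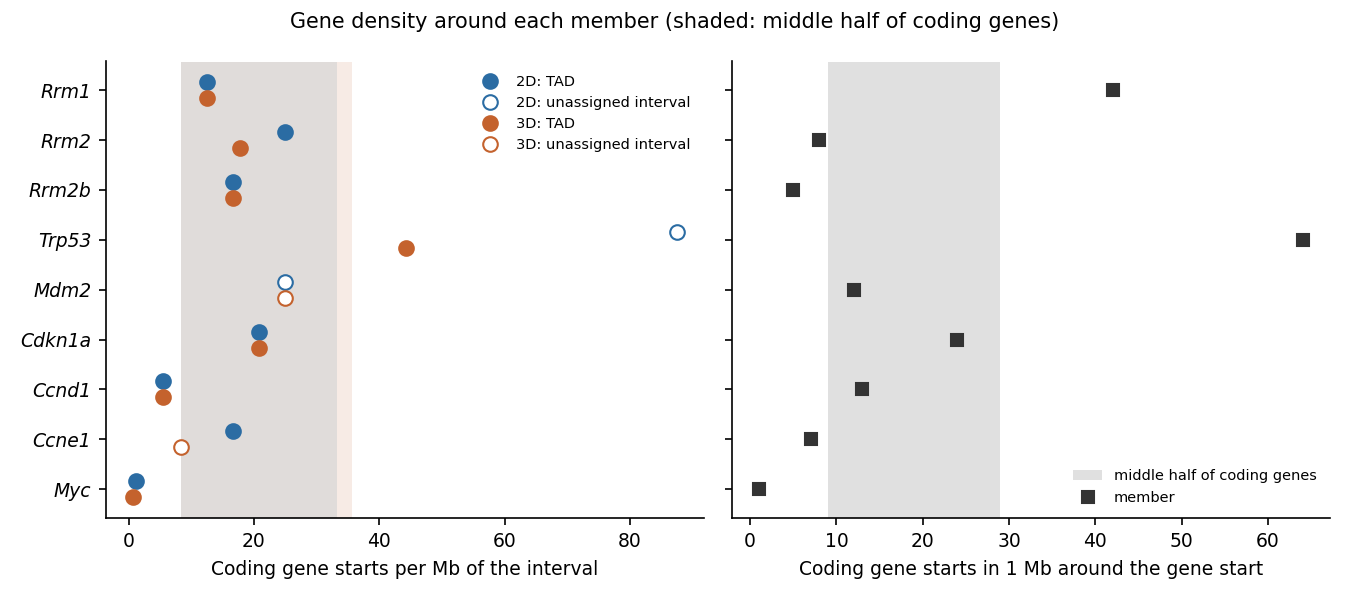
Protein-coding gene starts per Mb of the TAD or unassigned interval of each gene (left) and protein-coding gene starts in 1 Mb around the gene start (right). Shading marks the range between the 25 and 75 percentiles, over protein-coding genes in a TAD (left) and over all protein-coding genes (right). In the window, Trp53 lies above this range with 64 starts while Myc lies below it with 1.

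By the density of the TAD, Trp53 in 3D was the 1 gene-dense case, and Ccnd1 and Myc were gene-poor in both cultures. By the window of 1 Mb, which does not depend on the TADs, Rrm1 and Trp53 were gene-dense and Rrm2, Rrm2b, Ccne1 and Myc gene-poor. The medians over all coding genes were 17.9 and 18.8 starts per Mb of TAD in 2D and 3D and 17 starts per window. Ccnd1 had a sparse TAD in a window of middle density, and Rrm1 had a TAD of middle density beside the olfactory receptor cluster.

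The base content of the 40 kb bin that holds each start was compared with that of the bins of all coding genes, since repeats and MboI sites bear on how many reads a bin can receive. None of the 9 bins held an unknown base. The GC content ran from 39.8% at Rrm2b to 50.2% at Ccnd1, around a median of 44.5% over all coding genes. Repeats took 48.9% of the bin of Cdkn1a, at percentile 92.1, and from 21.4% to 34.3% of the other 8. Trp53 and Cdkn1a had the fewest MboI sites, 77 and 81 against a median of 99, at percentiles 3.44 and 6.82. The MboI fragment with the start of Cdkn1a was the longest of the 9, at 2659 bases and percentile 98.4, and that of Trp53 measured 2075 bases, at percentile 95.1. Trp53 changed class between the lists, and Cdkn1a had an identical TAD in both. The part of site number in the calls was not tested.

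To set the 9 genes beside their pathways, 78 further genes in 5 lists were placed in the same way. Of the 78, 35 (44.9%) had the same TAD in both cultures and 15 (19.2%) lay in different TADs. Another 2 (2.56%) were in a TAD in 2D only, 11 (14.1%) in 3D only and 15 (19.2%) in neither. The shares of all protein-coding genes in these classes, in the same order, were 49.7%, 23.1%, 3.95%, 10.8% and 12.6%. A border lay within 40 kb of the start for 56 of them (71.8%) in 2D and for 43 (55.1%) in 3D, beside the 41.1% and 38.7% of all coding genes.

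**Figure D5:**
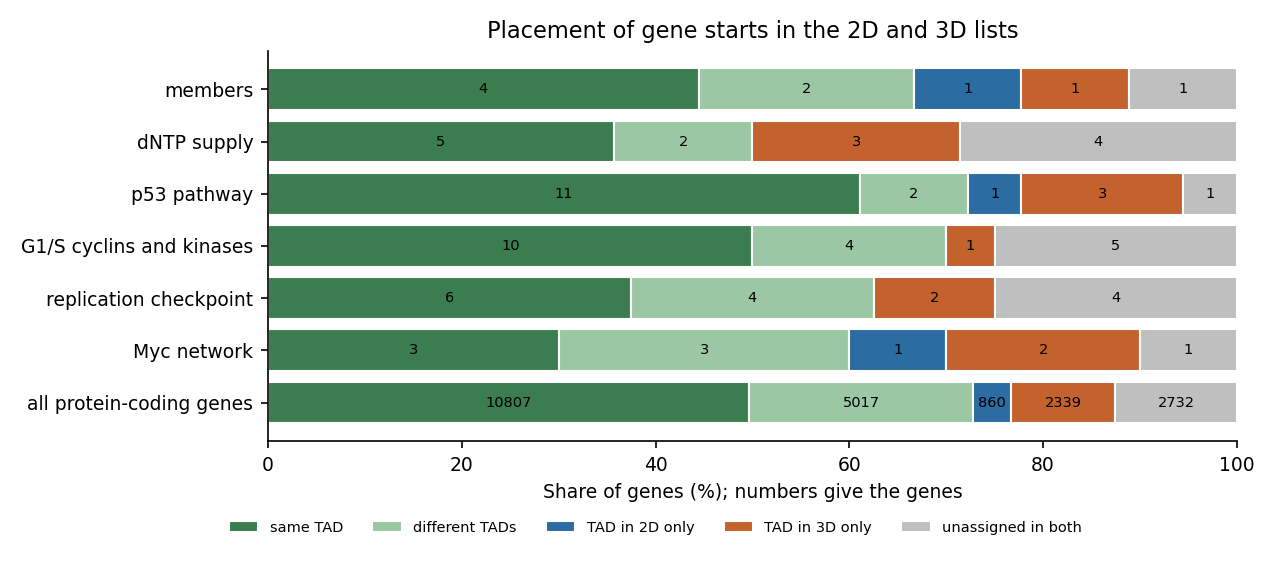
Share of genes in percent in each of 5 placement classes, for the 9 genes, 5 lists of other pathway genes and all protein-coding genes, with the number of genes on each bar. The same TAD in both lists holds 4 of the 9 genes, 35.7% of the dNTP supply list, 61.1% of the p53 list and 49.7% of all protein-coding genes.

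Of the 14 other genes of dNTP supply, 5 had the same TAD with ends within 40 kb, and 3 of these with identical ends. Among the 5 were the kinases Tk1 and Dck, the deaminase Dctd and Nme1. Dut and Umps lay in different TADs. The TAD of Dut, the enzyme that clears dUTP, measured 320 kb in 2D but 2800 kb in 3D. The start of Dut lay 7.19 kb from a border of the 2D list and 313 kb from one of the 3D list. Tyms, the thymidylate synthase, Dhodh and Shmt1 were in a TAD in 3D only, and Tk2, Samhd1, Dtymk and Cad in neither list. A border lay within 40 kb for 11 of the 14 in 2D and 8 in 3D.

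Of the 18 other p53 pathway genes, 11 kept the same TAD. The pro-apoptotic Bax and the exonuclease gene Aen lay in different TADs. Bbc3, which encodes Puma, was in a TAD in 2D only, Fas, Btg2 and Ppm1d in 3D only, and Ccng1 in neither. A border lay within 40 kb for 11 of the 18 in 2D and 9 in 3D.

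Of the 20 other G1/S genes, 10 had the same TAD with ends within 40 kb, and 6 of these with identical ends. Cdk2, the kinase that cyclin E activates, lay in a TAD of 240 kb in 2D and of 160 kb in 3D, and Cdkn2a, Cdkn2b and E2f2 also lay in different TADs. Cdk4, the partner of cyclin D1, was in a TAD of 160 kb in 3D only. Ccna2, Cdkn1b, Rbl1, Cdc25a and Skp2 were in neither list. A border lay within 40 kb for 15 of the 20 in 2D and 11 in 3D.

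Of the 16 replication checkpoint genes, whose products sense and answer stalled forks, 6 had the same TAD, and 5 of these with identical ends. A further 4 lay in different TADs, 2 were in a TAD in 3D only and 4 in neither. Those in different TADs were Atm, Timeless, Tipin and Topbp1, those in 3D only were Atrip and Rpa1, and those in neither were the kinase genes Chek1, Chek2 and Wee1 and the adaptor Clspn. A border lay within 40 kb for 14 of the 16 in 2D and 10 in 3D.

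Of the 10 genes of the Myc network, Mxd3, Mxi1 and Mlx kept the same TAD. Mycn, Mxd1 and Mnt lay in different TADs, Mycl in a TAD in 2D only, Max, the obligate partner of Myc, and Mga in 3D only, and Mxd4 in neither. Mycn had a TAD of 920 kb in 2D and of 1920 kb in 3D, and its distance of 298 kb to the nearest border was the same in both. In each culture 5 of the 10 had a border within 40 kb. No gene of the 5 lists shared a TAD with any of the 9 genes in either culture.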

How the data were processed

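TADs were measured in 4 in situ Hi-C samples of AML12 cells, 2 replicates in each of 2 cultures. The deposited values are positions on mm10, another kind of value than counts or signals: where each TAD starts and ends. The authors mapped reads with Bowtie 2 (version 2.2.9 per the submitters' processing notes), combined the replicates, corrected the 40 kb matrices with ICE, equalized the contacts of each chromosome between cultures and called domains with Armatus. Combining replicates and equalizing depth leave 1 list per culture, so neither replicate error nor depth can be read from the lists.

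Genes came from GENCODE M21 on GRCm38, the build of mm10; the last TAD of all 20 chromosomes ended within the chromosome. Values were computed in Python 3.11.15 with numpy 2.4.6 and pandas 2.3.3, and the measures were tested on simulated lists. Every distinct position at which a TAD starts or ends was taken as a border. A percentile is the share of protein-coding genes with a smaller value plus 50% of those equal, over genes in a TAD for size and density and over all for distances and windows.

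The genes and lists were chosen with earlier results of these data known. The rule named the 9 genes, up to 5 coding genes in the same interval in both cultures, and list genes in classes of 5 or fewer. Genes at borders, Pvt1, Trp53cor1, Gsdmc, Olfr543, Cdk2, Fxr2 and neighbours shared in 1 culture were named after their values were seen. Some genes that the rule would name are not reported here. Alternatives covered the distance between ends, reciprocal overlap, placement by the middle or whole gene, other ranks, windows, biotypes and border definitions.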

Additional observations from a re-analysis of the deposited data

How the results depend on the processing

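Of 48 alternative values, 31 kept within 1.5 times of the value given (percentiles within 10 points) and 17 did not. The count of 4 genes in the same TAD stayed 4 with identical ends, ends within 80 kb, reciprocal overlap of 80% or 50% and placement by the middle of the gene, and was 3 when the whole gene had to lie inside, since a border cuts Rrm2b. Placement by the middle moved Rrm2b into its 600 kb neighbour. Ranked among TADs of the list, the median size percentile was 52.2 in 2D and 53.2 in 3D, instead of 40.1 and 41.2. Gene-dense genes numbered 2 in the windows of 1 and 2 Mb, instead of 0 in 2D and 1 in 3D, and gene-poor genes 4 and 5, instead of 2. The fifth was Ccnd1, whose window of 2 Mb runs past the chromosome end, 502 kb from its start, so that its count covers less than 2 Mb. From the nearest edge of the gene, the median border distance was 9.93 kb (2D) and 10.2 kb (3D), instead of 20.4 and 38.3 kb. With only positions where 2 TADs meet as borders, the 3D median was 59.6 kb and the shared borders were 7 in 2D and 8 in 3D, instead of 11 and 14. With identical ends, the same TAD held 3 genes of dNTP supply instead of 5 and 6 G1/S genes instead of 10. No paired analysis was possible because the replicates were combined before TADs were called, and no replicate could be left out for the same reason. The 40 kb bins limit all distances, and the lists give no contact counts from which the precision of a single border could be judged.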

Other observations

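Among the 78 other pathway genes, 2 pairs shared a TAD. Ccne2, the gene of the second cyclin E, started in the same 120 kb TAD as Trp53inp1, a p53 target, at chr4:11080001-11200000 in both cultures, whereas Ccne1 was unassigned in 3D. Cdkn2a and Cdkn2b, neighbouring genes of the INK4 inhibitors, shared a TAD in both cultures that measured 280 kb (2D) and 440 kb (3D).

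Of the replication checkpoint genes, Chek2 started 0.022 kb from a border in both lists, closer than any of the 9 genes, and Clspn 3.07 kb. Both starts lay in unassigned stretches. At 40 kb bins these distances cannot be told from those of other genes in the same bin.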
